A study of Drosophila melanogaster with 24 samples.

Results

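Circulating microRNAs of Drosophila melanogaster were compared between old and young flies by small RNA sequencing of hemolymph, the fluid that fills the body cavity of an insect and bathes its organs. The comparison took all libraries labelled hemolymph, 8 from flies 25 days old and 4 from flies 2 days old, which are 12 of the 24 libraries of the series. The other 12 are body tissue of flies of the same ages and served only for reference. All flies are labelled male, and the sources used here do not give strain, genotype, diet or the number of flies behind a library. Old hemolymph libraries 1 to 4 carry a label code with O and libraries 5 to 8 one with R, and no label explains the letters. RNA was isolated with a serum and plasma kit, and it is not stated whether blood cells were removed, so fewer cells of a type and less RNA per cell or per volume cannot be told apart. Nothing says that the libraries came from separate pools of flies, so the p-values rest on a spread between libraries that may be technical in part.

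MicroRNAs are short RNAs cut from the 2 arms of a hairpin precursor, named 5p and 3p, and they repress messenger RNAs that match their seed. Usually 1 arm is loaded into an Argonaute protein and kept, and the other is degraded. Bound to protein or packed in vesicles, microRNAs also leave cells, and in an insect the hemolymph carries them between the fat body, gut, muscle, nervous system and blood cells. The deposited table listed 466 mature microRNAs, of which 271 had at least 1 count in hemolymph. A minimum on counts, as set by edgeR's filterByExpr, left 86 to test, and these held 99.77% of the hemolymph counts. Total counts per library ran from 52792 to 120876 in old and from 56010 to 275974 in young hemolymph. Levels are given as CPM, the microRNA's counts scaled to a library total of 1e6. Changes are relative to the other microRNAs and not per volume of hemolymph.

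A few microRNAs filled most of each library, and the leading names changed places with age. miR-8-3p, a fat body microRNA of the miR-200 family, took 21.9% ± 7.15 of counts in young (SD, n = 4) and 33.0% ± 5.13 in old hemolymph (n = 8). Its 4 young values were 143500, 173800, 268600 and 290500 CPM, and its old values ran from 254200 to 400800 with a median of 315700. The groups overlapped, and the log2 fold change of 0.40 ± 0.21 (SE) did not pass (edgeR's quasi-likelihood test with Benjamini-Hochberg adjustment, adjusted p = 0.148). With library size alone as the scale, with R-coded old libraries only and without young libraries 3 and 4, miR-8-3p did pass as higher. miR-276a-3p fell from 16.8% ± 1.96 to 5.67% ± 0.990 of counts, and miR-317-3p rose from 3.63% ± 2.12 to 10.5% ± 0.71. The 10 microRNAs with the highest mean level together held 77.0% ± 2.16 in young and 78.3% ± 2.98 in old libraries, with overlapping ranges (exact permutation p = 0.477, two-sided). At an equal depth of 52792 counts, 139 ± 7.42 microRNAs were detected in young and 142 ± 6.86 in old libraries (exact permutation p = 0.562).

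Of the 86 microRNAs tested, 16 (18.6%) rose and 24 (27.9%) fell with age, 46.5% in all at an adjusted p below 0.05. The groups did not overlap for 25 microRNAs (29.1%). In 14 (16.3%) every old library lay above every young one, and in 11 (12.8%) every old library lay below. Of the 40 microRNAs called, 16 were called under each of the 32 other settings that tested them, namely 6 rises and 10 falls. The rises are miR-34-5p, miR-957-3p, miR-12-5p and the 3 products of the mir-281 hairpins. The falls are bantam-3p, miR-2a-3p, miR-9a-5p, miR-31a-5p, miR-277-5p, miR-282-5p and the 4 products of the mir-276 hairpins, of which miR-276a-5p and miR-276b-5p have equal counts and are a single measurement. Upper-quartile scaling gave 17 rises and 19 falls and library size alone 20 and 19. These scalings moved the tested microRNAs by medians of 0.21 and 0.24 on the log2 scale. Without young library 2, 13 microRNAs fell.

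**Figure D1:**
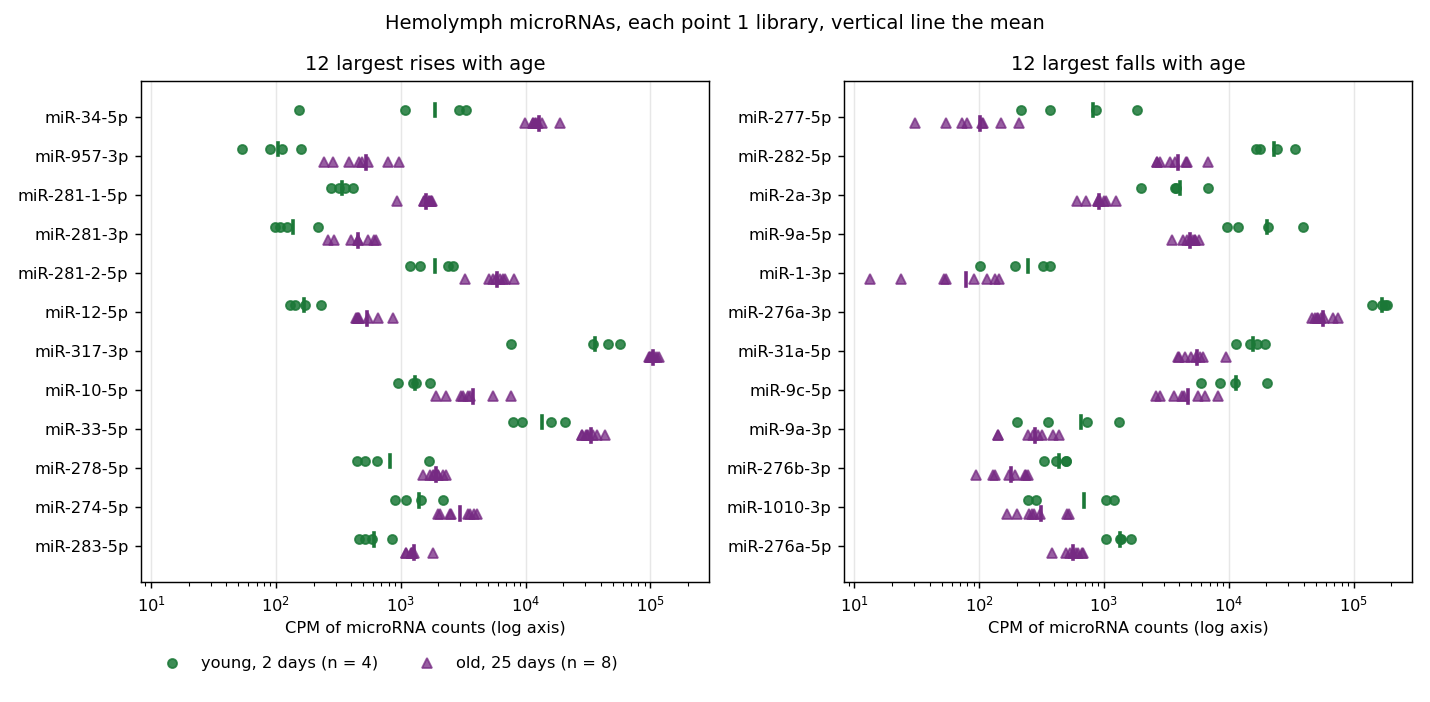
CPM of the 12 microRNAs with the largest rises (left) and the 12 with the largest falls (right) in each hemolymph library, on a log axis. Circles are the 4 young and triangles the 8 old libraries, and the vertical line is the group mean. For miR-34-5p the young libraries lie between 153 and 3339 CPM and the old ones between 9820 and 18810, while for miR-276a-3p the young libraries lie between 139800 and 183500 and the old ones between 46450 and 75060.

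**Figure D2:**
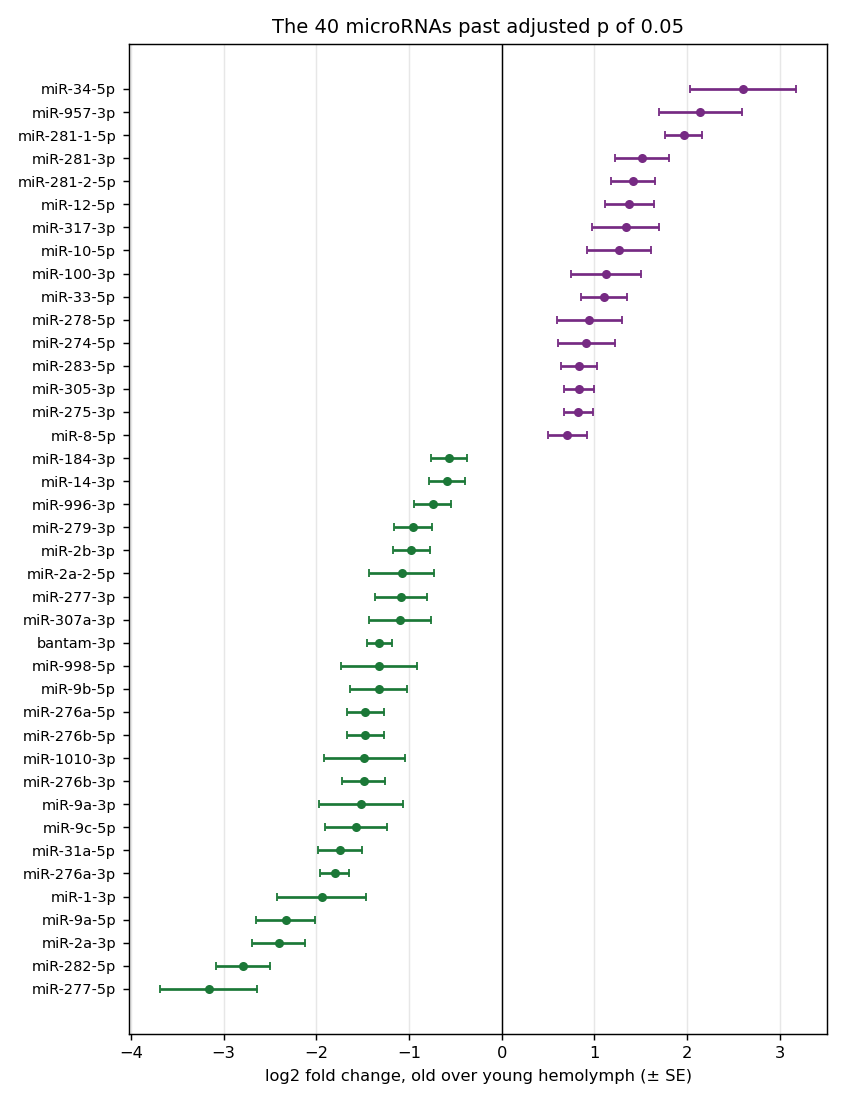
Log2 fold change of old over young hemolymph, with its standard error, for the 40 microRNAs past an adjusted p of 0.05. The values run from -3.16 for miR-277-5p to 2.60 for miR-34-5p.

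The microRNA that lost most in absolute level was miR-276a-3p, which acts in the mushroom body of the fly brain in olfactory memory. Its hairpin is part of an exon of lncRNA:CR46006, on the plus strand of 3L from 10365228 to 10365325 (dm6). Young libraries 1 to 4 held 183500, 178900, 139800 and 168200 CPM, and old libraries from 46450 to 75060 with a median of 53250. Every old library was below every young one, with a log2 fold change of -1.80 ± 0.15 (adjusted p = 2.19e-06). The other products of the 2 mir-276 hairpins fell as well. miR-276b-3p went from 433 ± 79.4 to 180 ± 56.6 CPM (-1.49 ± 0.23, adjusted p = 0.000189), and miR-276a-5p, with the same counts as miR-276b-5p, from 1350 ± 252 to 566 ± 96.0 CPM (-1.47 ± 0.20). Reads of the closely similar 3p arms may have been assigned to either name.

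Of 16 microRNAs known from the head and nervous system, 5 could be tested, of which 2 fell (miR-276a-3p and miR-276b-3p) and 1 rose. Over all tested microRNAs 46.5% passed. The list had a median log2 fold change of -0.26 against 0.016 over all tested microRNAs. The rise was of miR-957-3p (3L, 22518196 to 22518291, minus strand), which stood at 53.0, 112, 89.3 and 159 CPM in the young libraries and at 245 to 960 CPM in the old ones, with a median of 478. These groups did not overlap (2.14 ± 0.45, adjusted p = 0.00165). miR-190-5p (-0.26 ± 0.21) and miR-929-5p (0.12 ± 0.34) did not pass. The other 11 listed were too scarce in hemolymph to test, and 2 of them had no count in any of the 12 libraries.

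The main arm of bantam was lower in old hemolymph. bantam-3p promotes tissue growth and blocks cell death through the gene hid. It stood at 106900, 86060, 80740 and 72890 CPM in young libraries 1 to 4. In old libraries it ran from 38170 to 45270 CPM with a median of 40520, clear of every young value (-1.32 ± 0.13, adjusted p = 5.56e-06). Its other arm, bantam-5p, was at 1598 ± 656 CPM in young and 1484 ± 242 CPM in old libraries (-0.35 ± 0.26, adjusted p = 0.306). Both arms come from 1 hairpin on 3L at 642208 to 642288 (plus strand). In the miR-2 seed family, which targets the cell death genes reaper, hid and grim, 2 of 5 tested members fell and none rose (median -0.37). Over all tested microRNAs 27.9% fell and 18.6% rose, so this small count does not set the family apart. miR-2a-3p had 6748, 3765, 1964 and 3726 CPM in the young and 604 to 1250 CPM in the old libraries, without overlap (-2.41 ± 0.29, adjusted p = 1.99e-05). miR-2b-3p was at -0.97 ± 0.20 (adjusted p = 0.00127), while miR-13b-3p (-0.37 ± 0.21), miR-11-3p (-0.20 ± 0.14) and miR-308-3p (0.017 ± 0.52) did not pass. The call of miR-2b-3p was lost with R-coded old libraries only. Members of the family differ by few bases and reads may be shared between them.

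All 3 tested members of the miR-9 family fell, where 27.9% of all tested microRNAs did, and the median was -1.57. miR-9a-5p, which limits the number of sense organ precursors by repressing senseless, was at 39350, 20400, 9641 and 11870 CPM in young libraries 1 to 4 and between 3491 and 5745 CPM in old ones (-2.33 ± 0.32, adjusted p = 5.66e-05). Young libraries 1 and 2 stood above 3 and 4, and no old library reached a young one. miR-9c-5p (-1.57 ± 0.34, adjusted p = 0.00186) and miR-9b-5p (-1.33 ± 0.31, adjusted p = 0.00296) lie within 1 cluster on 2L, and their groups overlapped. Without young libraries 1 and 2, miR-9b-5p was no longer called. Between these hairpins sits mir-306, whose miR-306-5p was at 0.45 ± 0.26 (adjusted p = 0.199). The sister microRNAs miR-279-3p (-0.95 ± 0.20, adjusted p = 0.00188) and miR-996-3p (-0.75 ± 0.20, adjusted p = 0.00688), which share a seed and a locus on 3R and act in sensory neuron fate, both fell. Neither was called with R-coded old libraries only or without young library 2 (-0.54 for each), and miR-996-3p was also not called without young library 3 (-0.37) or under upper-quartile scaling.

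Steep falls were also seen for 2 single microRNAs. miR-282-5p, cut from lncRNA:CR43626 (3L, 3251022 to 3251118, plus strand), was at 33800, 16370, 24080 and 17610 CPM in young libraries 1 to 4. In old libraries it ran from 2676 to 6838 CPM with a median of 3512, so no library of 1 age reached the other (-2.79 ± 0.29, adjusted p = 6.29e-06). miR-31a-5p (2R, 17783795 to 17783886, minus strand) fell from 15680 ± 3377 to 5527 ± 1783 CPM, again without overlap (-1.74 ± 0.24, adjusted p = 5.66e-05). miR-1010-3p, from an intron of SKIP, also fell (-1.48 ± 0.43, adjusted p = 0.0132), yet its old values of 166 to 525 CPM covered young libraries 3 and 4 at 286 and 246 CPM. Without young libraries 1 and 2 its log2 fold change was -0.014, and without young library 2 alone it was -0.71 and not called. miR-184-3p (-0.57 ± 0.20, adjusted p = 0.0265), among the most abundant in hemolymph, passed in 14 of 32 other settings, and without young library 2, 1 of the libraries that ended its call, it stood at -0.087.

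Of 12 gut, fat body and metabolism microRNAs, all tested, 5 rose and 2 fell, where 18.6% of all tested microRNAs rose and 27.9% fell, and the median log2 fold change was 0.54 against 0.016 over all tested microRNAs. With library size alone the counts were 7 and 1. All 3 products of the neighbouring mir-281-1 and mir-281-2 hairpins on 2R, known from the midgut of mosquitoes, were among the rises. These 3 come from 1 locus, so the 5 rises are not 5 separate ones and do not set the list apart. miR-281-1-5p stood at 318, 355, 411 and 274 CPM in the young libraries. In the old libraries it ran from 934 to 1781 with a median of 1692 CPM, the lowest being old library 6, and the groups were apart (1.97 ± 0.20, adjusted p = 5.56e-06). miR-281-2-5p went from 1897 ± 703 to 5932 ± 1411 CPM (1.42 ± 0.24, adjusted p = 0.000304) and miR-281-3p, which both hairpins give, from 136 ± 54.6 to 455 ± 137 CPM (1.52 ± 0.29, adjusted p = 0.000908).

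The other rises of that list were miR-275-3p, needed for blood digestion in mosquitoes, and miR-33-5p, a lipid regulator from an intron of SREBP. miR-275-3p held 7343, 11260, 12890 and 12060 CPM in the young libraries and 19010 to 24660 CPM in the old ones, with a median of 22760 (0.83 ± 0.16, adjusted p = 0.000908). Its neighbour on the same strand, mir-305, lies at 2L, 7425972 to 7426044, and serves in the gut stem cell response to nutrients. miR-305-3p rose by nearly the same amount, from 6105 ± 1163 to 12810 ± 1085 CPM (0.83 ± 0.16, adjusted p = 0.000908), while miR-305-5p was at 0.30 ± 0.19 (adjusted p = 0.254). miR-33-5p was at 9316, 7972, 20690 and 15890 CPM in young and 28120 to 43110 CPM in old libraries (1.11 ± 0.25, adjusted p = 0.00249), and was no longer called without young libraries 1 and 2 (0.64) or with O-coded old libraries only (0.88).

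The 2 falls of the list were miR-277-3p and miR-14-3p, which curbs fat storage and cell death. miR-14-3p was at 75890 ± 17410 CPM in young and 60070 ± 14750 CPM in old libraries with overlapping ranges (-0.59 ± 0.20, adjusted p = 0.0239). Leaving out old library 6 or young library 1, 2 or 3 ended the call (-0.47 to -0.31), as did upper-quartile scaling and library size alone. miR-278-3p, which sets insulin sensitivity of the fat body, was at 0.12 ± 0.22 (adjusted p = 0.675), while its other arm miR-278-5p rose (0.95 ± 0.35, adjusted p = 0.0387), a call lost at nearly the same size without old library 2 or 7 (0.95 and 0.93) or with O-coded old libraries only (0.98), and lost with a smaller value without young libraries 3 and 4 (0.38). The minor arm miR-8-5p rose from 10350 ± 1561 to 19670 ± 3243 CPM without overlap (0.71 ± 0.21, adjusted p = 0.0135), which was lost without young library 1 (0.58). miR-263a-5p stood at 59950 and 33910 CPM in young libraries 1 and 2, at 5231 and 5517 CPM in young libraries 3 and 4, and at 14000 to 27370 CPM in old libraries, which lay between these pairs (-0.74 ± 0.53, adjusted p = 0.278).

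The 3 hairpins mir-317, mir-277 and mir-34 lie on 3R within 10 kb (10091126 to 10101034, plus strand), and their products moved in opposite directions. miR-34-5p, known in the adult fly brain for protection against neurodegeneration, was at 153, 1091, 3339 and 2903 CPM in young libraries 1 to 4. Old libraries ran from 9820 to 18810 CPM with a median of 12040, above every young value (2.60 ± 0.57, adjusted p = 0.00221). The other arm, miR-34-3p, was at 3068, 4674, 14980 and 13430 CPM in the young and 5824 to 11400 CPM in the old libraries, which lay within the young range (-0.26 ± 0.35, adjusted p = 0.572). miR-317-3p was at 7679, 34520, 57310 and 45600 CPM in young libraries and between 96970 and 117200 CPM in old ones, without overlap (1.34 ± 0.36, adjusted p = 0.00782). Set against young libraries, the O-coded old libraries alone gave 1.19, which did not pass.

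Both arms of mir-277, a regulator of branched-chain amino acid breakdown and lifespan, fell. miR-277-5p was at 218, 366, 1821 and 867 CPM in young libraries and at 30.3 to 208 CPM in old ones (-3.16 ± 0.52, adjusted p = 0.000288), with no overlap and the narrowest gap between young library 1 and old library 3. miR-277-3p went from 22820 ± 6249 to 12780 ± 5954 CPM (-1.09 ± 0.28, adjusted p = 0.00609), and old library 3, at 26840 CPM, lay inside the young range. It was no longer called without young library 2 (-0.83) or 3 (-0.64), or when old libraries were limited to the O-coded ones (-0.78). Young library 1 was the lowest of all 12 libraries for miR-317-3p, miR-34-5p and miR-34-3p. Of the 7 aging and lifespan microRNAs, which include this cluster's miR-34-5p and miR-277-3p, 1 rose and 2 fell (miR-277-3p and miR-14-3p), a share near the 46.5% called over all tested microRNAs, and the median was 0.19.

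**Figure D3:**
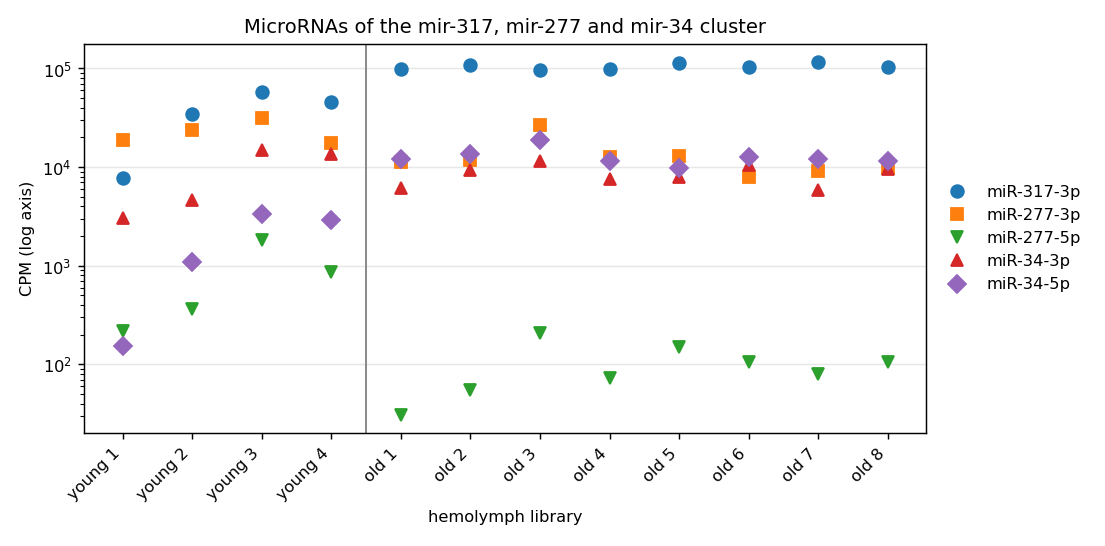
CPM of the 5 tested products of the mir-317, mir-277 and mir-34 hairpins in each of the 12 hemolymph libraries, on a log axis, with young libraries left of the grey line. miR-34-5p (diamonds) lies below miR-34-3p (triangles pointing up) in all 4 young libraries and above it in all 8 old ones.

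A ratio of the 2 arms of a hairpin within a library does not depend on how libraries are scaled. It was compared for the 22 hairpins with both arms tested, by an exact permutation test of the log2 ratio of 5p to 3p counts (two-sided, adjusted over the 22, smallest possible p = 0.00404), a test added after the fold changes were seen. The ratio differed with age for 6 of 22 hairpins (27.3%), being higher in old hemolymph for 4 (18.2%) and lower for 2 (9.09%). For mir-34 the log2 ratio was -2.69 ± 1.07 in young and 0.59 ± 0.31 in old libraries, so that the more abundant arm changed from 3p to 5p in every library (difference 3.28, exact permutation p = 0.00404, adjusted p = 0.0222). Young library 1 stood lowest at -4.30, and without any 1 library the difference lay between 2.74 and 3.48. mir-10 went from 1.06 ± 0.31 to 2.98 ± 0.37 (adjusted p = 0.0222), bantam from -5.84 ± 0.45 to -4.80 ± 0.27 (adjusted p = 0.0222) and mir-278 from -1.94 ± 0.52 to -0.91 ± 0.23 (adjusted p = 0.0222), each without overlap and each from an exact permutation test. The ratio was lower in old libraries for mir-277, at -5.21 ± 1.17 against -6.98 ± 0.72, and for mir-305, at -0.25 ± 0.27 against -0.79 ± 0.16 (exact permutation, adjusted p = 0.0296 for each), and these groups overlapped. The other 16 hairpins, mir-8 and mir-14 among them, did not pass.

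Counts on minor arms, taken as the arm with fewer counts over the 12 hemolymph libraries, were a larger part of old libraries. They took 3.01% ± 0.242 of counts in young and 5.36% ± 0.377 in old libraries over 90 hairpins, without overlap (exact permutation p = 0.00404, adjusted p = 0.0242 over 6 composition measures). The minor arms were set from these same libraries, and miR-34-5p counted as minor though it was the more abundant arm in every old library. It went from 0.19% to 1.27% of counts and miR-8-5p from 1.035% to 1.97%. Minor arms of the other hairpins took 1.79% ± 0.333 of all counts in young and 2.12% ± 0.119 in old libraries (exact permutation p = 0.0444, unadjusted, added after seeing the data). The total behind these shares still includes miR-8-3p, at 21.9% of counts in young and 33.0% in old libraries. Most of the difference in share thus came from miR-34-5p and miR-8-5p. Whether minor arms gained in general was not tested.

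**Figure D4:**
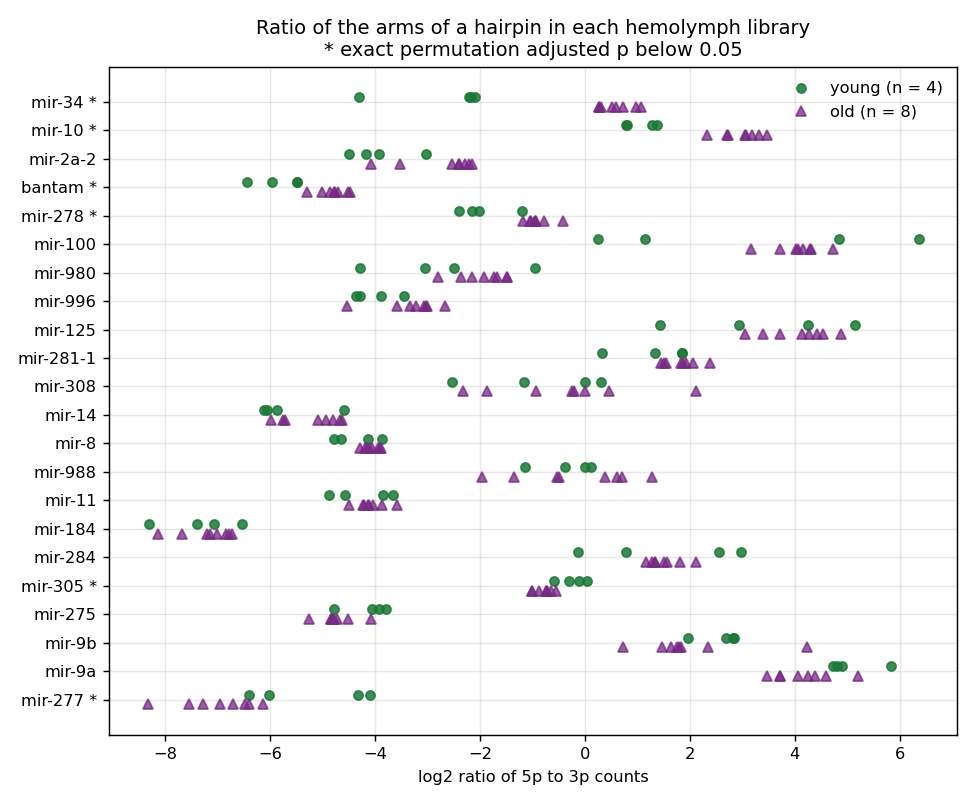
Log2 ratio of 5p to 3p counts in each hemolymph library for the 22 hairpins with both arms tested, ordered by the difference between ages. Circles are young and triangles old libraries, and a star marks an adjusted p below 0.05 by an exact permutation test. The mir-34 row shows all young libraries below 0 and all old libraries above it.

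Both tested members of the mir-12, mir-283 and mir-304 cluster, in an intron of Gmap on X, rose, where 18.6% of all tested microRNAs did. miR-12-5p was at 171, 228, 143 and 130 CPM in young and 435 to 866 CPM in old libraries (1.38 ± 0.26, adjusted p = 0.000908), and miR-283-5p went from 608 ± 174 to 1273 ± 224 CPM (0.83 ± 0.20, adjusted p = 0.00327), both without overlap. The call of miR-283-5p was lost without young libraries 1 and 2. miR-274-5p, which glia release into larval hemolymph in vesicles, rose from 1412 ± 564 to 3006 ± 839 CPM (0.91 ± 0.31, adjusted p = 0.0240), and leaving out old library 6 or young library 1, 2 or 3 ended the call (0.71 to 1.21). In the E2f1 intron, miR-998-5p fell (-1.33 ± 0.41, adjusted p = 0.0161, not called without young library 2) while its neighbour miR-11-3p was at -0.20 ± 0.14 (adjusted p = 0.275). The O-coded old libraries held 198 to 398 CPM of miR-998-5p and the R-coded ones 57.9 to 114, against 286 to 433 CPM in young libraries. Its call was also lost with O-coded old libraries only, without young libraries 1 and 2, with library size alone, with a replicate block by title number and on thinning.

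No member of the let-7 complex, a single transcript that times development, passed at its main arm. let-7-5p was at 11570, 8519, 4999 and 4463 CPM in young libraries 1 to 4 and at 6868 to 14480 CPM in old ones (0.19 ± 0.27, adjusted p = 0.572). miR-100-5p held 2179 and 1714 CPM in young libraries 1 and 2 but 89.3 and 86.7 CPM in 3 and 4, against 1419 to 2728 CPM in old libraries (0.71 ± 0.67, adjusted p = 0.419). miR-125-5p was split the same way (-0.20 ± 0.42, adjusted p = 0.719). Against young libraries 3 and 4 alone all 3 members rose, with a median of 1.32, and against young libraries 1 and 2 alone none rose and miR-125-5p fell. The minor arm miR-100-3p rose (1.13 ± 0.38, adjusted p = 0.0240), at 47.4 ± 21.9 CPM in young and 123 ± 37.5 in old libraries, and was not called without young library 1. Without old library 1, 4, 6 or 8 it fell below the count minimum and was not tested.

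MicroRNAs of other tissues were read as a measure of what the hemolymph samples held. Of 6 microRNAs chosen as rich in body tissue 3 could be tested, and their summed level ran from 2379 to 9214 CPM in young and from 5296 to 12800 CPM in old libraries. miR-956-3p, the most abundant microRNA of body libraries, was at 819, 5540, 6052 and 7770 CPM in young and 2751 to 9053 CPM in old libraries (-0.18 ± 0.44, adjusted p = 0.751). miR-10-5p, from the Antennapedia complex, rose from 1309 ± 322 to 3811 ± 1859 CPM without overlap (1.27 ± 0.35, adjusted p = 0.00832), and was not called without young libraries 3 and 4 (0.93). The muscle microRNA miR-1-3p fell from 246 ± 121 to 78.5 ± 49.9 CPM (-1.94 ± 0.48, adjusted p = 0.00469), and without young library 2 it was at -1.38 and not called. With miR-9a-5p, which is also in the miR-9 family, 2 of 3 tested muscle microRNAs fell, where 27.9% of all tested microRNAs did. The other, miR-92b-3p, was at 1.14 ± 0.69 (adjusted p = 0.214). With so few members, and the miR-1-3p call lost without young library 2, the count does not set the muscle list apart. Of the 9 tested immune and hemocyte microRNAs 1 rose (miR-317-3p) and 3 fell (bantam-3p, miR-9a-5p and miR-279-3p), again a share near the 46.5% called over all, with a median of 0.40.

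Ovary microRNAs were counted in these libraries, which are labelled male, and the 2 tested of 3 listed varied widely within each age. The other, miR-989-3p, was too scarce for the main test. It was at 0 to 11.8 CPM in young and 33.1 to 454 CPM in old libraries, without overlap. miR-989-3p was called higher with no low-count filter, with all 24 libraries in the fit and without young libraries 3 and 4. The follicle cell microRNA miR-318-3p was at 11.8, 36.2, 982 and 1906 CPM in young libraries 1 to 4 and at 147 to 17910 CPM in old ones with a median of 400, old library 4 being the highest (1.64 ± 1.52, adjusted p = 0.406). Its direction turned with the libraries used. It was at -1.47 when old libraries were limited to the R-coded ones, at -0.54 without old library 4, at -0.55 by DESeq2, and at 3.996 without old library 4 and young libraries 3 and 4 (edgeR, adjusted p = 0.00772, a setting added after seeing the data). The seed family of miR-310 and miR-92, known from germline and muscle, was highest in old library 4 as well, and its summed level ran from 524 to 23890 CPM in young and from 6668 to 49790 CPM in old libraries. None of its 5 tested members passed (median 1.14). Without young library 4 alone 4 of 5 passed as higher (median 2.61), as they did in limma with sample weights (median 2.21), and without young library 1 none did (median 0.71). Against young libraries 1 and 2 alone all 5 passed as higher (median 3.59), and against young libraries 3 and 4 alone none did (median 0.18). No member of the testis clusters or the early embryo cluster could be tested, and their summed levels reached at most 170 and 147 CPM. What part these microRNAs have in the age changes above was not tested.

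The change with age differed between hemolymph and body tissue for some microRNAs and not for others. Over all 24 libraries, 18 of 124 microRNAs (14.5%) passed a test of the difference between the age change in hemolymph and that in body, 8 (6.45%) with a higher and 10 (8.06%) with a lower value in hemolymph. Of these 18, 15 were among the 86 tested within hemolymph. Of 81 microRNAs tested in both compartments, 39 changed with age in hemolymph. Of those, 22 also changed in body in the same direction, 5 changed in body in the opposite direction and 12 did not pass in body, where 48.7% of microRNAs passed (19.1% higher and 29.6% lower).

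The 5 with opposite calls were miR-275-3p, miR-957-3p, miR-2b-3p, miR-14-3p and miR-996-3p, and for each the difference itself passed. miR-275-3p rose in hemolymph by 0.83 and went from 8679 ± 2634 to 1942 ± 339 CPM in body (-2.25 ± 0.21), a difference of 3.10 ± 0.34 (adjusted p = 2.91e-07). miR-957-3p rose by 2.14 in hemolymph, with -0.73 ± 0.13 in body (difference 2.87 ± 0.48, adjusted p = 0.000142). miR-996-3p (difference -1.43 ± 0.23, adjusted p = 0.000119) and miR-2b-3p (-1.37 ± 0.24, adjusted p = 0.000225) fell in hemolymph and rose in body, as did miR-14-3p (-1.07 ± 0.33, adjusted p = 0.0258), where the difference was not called without old hemolymph library 4 (-0.79). miR-317-3p rose in hemolymph and stood at -0.26 ± 0.20 in body (difference 1.59 ± 0.46, adjusted p = 0.0208). The arms of mir-10 differed in opposite directions, miR-10-5p by 1.43 ± 0.44 (adjusted p = 0.0263) and miR-10-3p by -1.52 ± 0.37 (adjusted p = 0.00782), the latter not called without old hemolymph library 4 (-1.18). miR-34-5p (1.19 ± 0.20 in body), miR-282-5p (-4.59 ± 0.55), miR-31a-5p (-1.67 ± 0.31) and miR-276a-3p (-0.91 ± 0.19) moved in the same direction in both compartments. Their differences did not pass, but apart from miR-31a-5p they were near the threshold and passed in some other settings. That of miR-276a-3p (-0.86 ± 0.32, adjusted p = 0.0736) passed with RLE, upper-quartile or library size scaling and with DESeq2 (-1.03 to -0.70), and without old library 5 or young library 1, 2 or 3. That of miR-282-5p (1.93 ± 0.68, adjusted p = 0.0582) passed with RLE or library size scaling and with DESeq2 (1.86 to 1.89), and without old library 4 or young library 1 or 4. That of miR-34-5p (1.31 ± 0.57, adjusted p = 0.112) passed without old library 4 or young library 1, 3 or 4 (1.11 to 1.98).

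**Figure D5:**
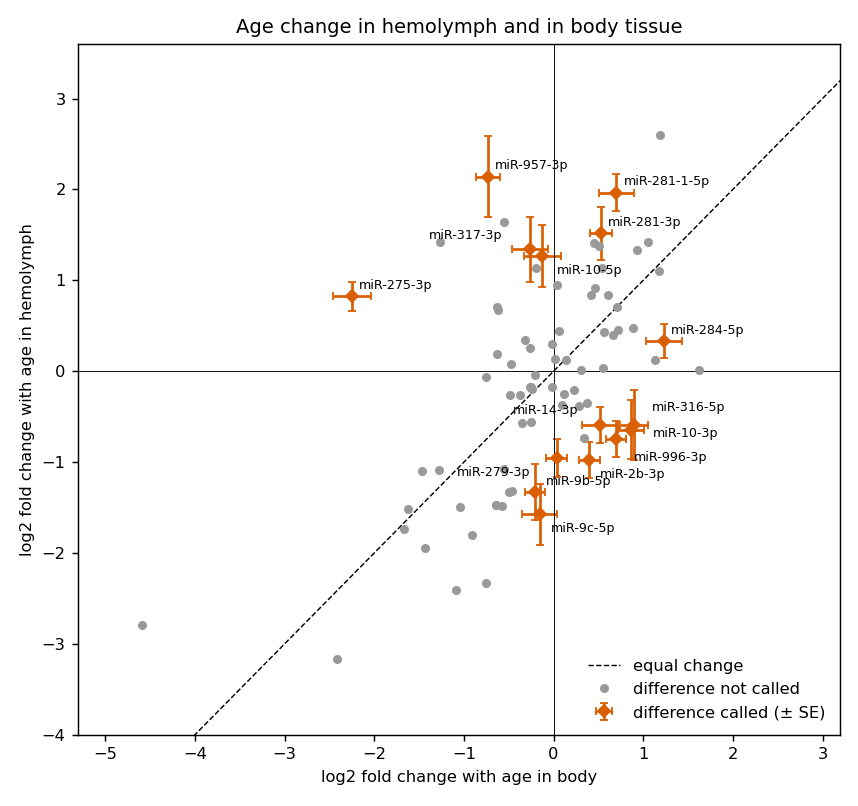
Log2 fold change with age in hemolymph against that in body for 81 microRNAs tested in both. Orange diamonds with standard errors are the 15 whose difference passed, grey points the others, and the dashed line marks equal change. miR-275-3p and miR-957-3p lie in the upper left, higher with age in hemolymph and lower in body.

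Few microRNAs passed between old libraries of the 2 codes, but so few libraries can miss differences, and likeness is not shown. Among those that did not pass by edgeR, miR-318-3p stood at -4.24 ± 1.14 in R against O (adjusted p = 0.108). miR-8-3p stood at 0.42 ± 0.14 (adjusted p = 0.16), as large as its age change of 0.40. The O-coded old libraries alone kept 24 of 37 age calls that could be tested, and the R-coded ones 31 of 39. Of 81 tested between R-coded and O-coded old hemolymph (4 against 4), none was higher and 2 (2.47%) were lower in R, miR-998-5p (-1.57 ± 0.34, adjusted p = 0.0401) and miR-10-3p (-1.14 ± 0.25, adjusted p = 0.0401). The young libraries were less alike, 1 and 2 standing apart from 3 and 4 for miR-263a-5p, the let-7 complex and the miR-310 family. Leaving out young libraries 1 and 2 together kept 26 of the 40 calls, and leaving out 3 and 4 together kept 36 and added 20. No called microRNA changed direction in any of these fits.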

How the data were processed

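Small RNA libraries of 12 hemolymph and 12 body samples were read as 50-base single-end sequences, per the labels' protocols. The deposited table gives raw counts per mature microRNA and hairpin, and RPM values that the authors made by dividing each count by its column total. Bowtie 1.0, edgeR and the build dm6 are named in the submitters' processing notes. No source used here gives the trimming or says how reads with several matches were counted. The counts were used, and the RPM columns were not.

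Where a name had several precursors, its row of highest total stood for it, so that 10 of 476 rows were unused, with 1.30% of hemolymph counts. Old and young hemolymph were compared with edgeR 4.0.16 (R 4.3.3; filterByExpr with a minimum count of 10, TMM, quasi-likelihood F test, Benjamini-Hochberg adjustment over all microRNAs tested, threshold 0.05), and body likewise. The difference between hemolymph and body was an interaction term over 24 libraries. CPM values are counts scaled to 1e6 over the rows used. Shares and arm ratios (0.5 added to each count) were compared by exact permutation of libraries, two-sided (scipy 1.17.1). Alternatives were other scalings, filters, DESeq2 1.42.0, limma 3.58.1 with sample weights, thinning to 52792 counts, replicate blocks and left-out libraries. The code was tested on simulated data. Totals of 52792 to 275974 counts limit the precision of scarce microRNAs.

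Named microRNAs were the 12 largest rises and falls past the threshold whose mean reached 100 CPM, the 10 of highest level, all tested list members, and their other arms and neighbours. Seed families were taken from general knowledge, and seed sequences were not compared. The comparison and lists were chosen with earlier results of these data known. Hairpin positions are from the Ensembl annotation of dm6.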

Additional observations from a re-analysis of the deposited data

Results flagged for a closer look

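Among 78 groups of libraries examined for a single outlying library by Dixon's test at the 0.05 level, which chance alone passes at about that rate, 7 had one. Old library 3 was highest for miR-34-5p (18810 CPM) and for miR-282-5p (6838 CPM). Old library 6 was lowest for miR-281-1-5p (934 CPM), old library 4 highest for miR-283-5p (1803 CPM) and old library 8 highest for miR-31a-5p (9408 CPM). Young library 1 stood apart for miR-278-5p (1696 CPM) and for the mir-34 log2 ratio of 5p to 3p counts (-4.30).

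The age change in hemolymph minus that in body passed the interaction test of edgeR for 15 microRNAs tested within hemolymph. On the log2 scale it was positive for miR-275-3p (3.10), miR-957-3p (2.87), miR-317-3p (1.59), miR-10-5p (1.43), miR-281-1-5p (1.22) and miR-281-3p (0.96). It was negative for miR-10-3p (-1.52), miR-316-5p (-1.48), miR-9c-5p (-1.46), miR-996-3p (-1.43), miR-2b-3p (-1.37), miR-9b-5p (-1.12), miR-14-3p (-1.07), miR-279-3p (-0.99) and miR-284-5p (-0.94). Without old hemolymph library 4 the differences of miR-14-3p (-0.79), miR-279-3p (-0.67) and miR-10-3p (-1.18) no longer passed. miR-281-3p was lost without old library 1, 3 or 8 (0.87 to 0.92), miR-9c-5p without young library 1 (-0.87) and miR-9b-5p without young library 1 (-0.71) or 2 (-0.96). With library size alone as the scale, miR-9c-5p (-1.12) and miR-9b-5p (-0.88) did not pass either. A replicate block by title number ended the call of miR-281-3p (0.94).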

How the results depend on the processing

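All 40 called microRNAs kept their direction under each alternative, and 16 stayed called in each that tested them. Against 16 rises and 24 falls, leaving out 1 library gave 14 to 22 rises and 13 to 25 falls. The O-coded old libraries alone gave 14 falls, and thinning gave 15. Without young libraries 3 and 4 there were 25 rises, and 26 without old library 4 as well, an alternative chosen after seeing the data. Without young libraries 1 and 2, miR-263a-5p (1.61) and miR-125-5p (1.32) turned from lower to higher. Same-numbered old and young libraries deviated together in only some pairs (r from -0.373 to 0.541). These values cannot show whether same-numbered samples were collected or processed together, and the main fit used no pairing. A replicate block by title number gave 9 rises and 11 falls and kept 18 calls, and a block by code number kept all 40. By title number, old libraries 5 to 8 have no young partner, so that fit compares only old libraries 1 to 4 with the young ones. For the difference from body, with 8 higher and 10 lower, RLE scaling gave 15 higher, library size alone 13, DESeq2 19, and upper-quartile scaling 19 lower. Leaving out 1 hemolymph library gave 7 to 15 higher and 7 to 15 lower. The difference in the minor arms share (2.35 percentage points) kept its size without any 1 young library (2.26 to 2.455, exact permutation adjusted p = 0.0727), with O-coded (2.29, exact permutation adjusted p = 0.171) and with R-coded old libraries only (2.40, exact permutation adjusted p = 0.0857). These designs are too small to show more, since their smallest exact p is 0.0121 with 3 young libraries and 0.0286 with 4 against 4, before adjustment over 6 measures. The difference in the share of the leading microRNA ran from 8.29 to 12.01 points without 1 library and passed without old library 4 (11.1, exact permutation adjusted p = 0.0182). The cause of the other changes was not tested. With 4 young libraries that differ among themselves, calls near the threshold rest on few samples.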
